A study of Mus musculus with 272 samples.

Results

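The genes described here are 40 replication and mitosis genes, taken by gene name from GENCODE M21 (mm10) out of the 21938 protein-coding genes on the assembled chromosomes. They cover origin licensing and the replicative helicase (8 genes), DNA synthesis (4), cyclins, cyclin-dependent kinases and *Cdc25c* (8), mitotic kinases and the spindle checkpoint (8), kinesins, centromere proteins and the chromosome passenger *Birc5* (7), transcription factors (4), and *Mki67*. By textbook role, 17 were listed as G1/S genes and 23 as G2/M genes. *Mybl2* was listed with the G1/S genes, although its product, B-Myb, acts in the G2/M wave. The question was whether promoters of division genes carry H3K4me3 and H3K27ac in muscle stem cells (MuSCs).

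Chromatin was profiled in GFP+ MuSCs sorted from hindlimb muscles of Pax7Cas9 mice, which carry Pax7-Cre and a Cre-dependent Cas9 with EGFP, so that Cas9 is made in Pax7-lineage cells only. The labels of these libraries name no age. The data are 8 peak lists, 2 replicates each of ATAC-seq (open chromatin) and of ChIP-seq for H3K4me3, H3K27ac and H3K27me3. Of the 272 samples in the series, the others were not analysed here. There is 1 cell population, and the labels of these libraries name no treatment and do not say whether the mice had received an AAV, so the comparisons are between gene lists, features and replicates. The labels do not say whether the replicates came from separate mice.

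Division genes are switched on in 2 waves in cycling cells. E2F factors drive the G1/S wave, and the MuvB complex with B-Myb and FoxM1 drives the G2/M wave, while in quiescent cells the DREAM complex, which joins MuvB to E2F4 or E2F5 and a p130 or p107 pocket protein, holds both down. H3K4me3 marks the starts of genes that are active or ready to be, H3K27ac marks active promoters and enhancers, and H3K27me3 is the mark left by Polycomb repression. MuSCs of adult resting muscle are largely out of the cell cycle and return to it after injury.

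A promoter was the region within 3 kb of any annotated transcription start site (TSS) of the gene, and it counted as marked where a listed peak touched it. Each value below is the fold enrichment at the summit of the strongest such peak, as MACS2 gave it, or the width of that peak. The lists held 94574 and 140937 ATAC-seq peaks, 18006 to 24217 peaks of H3K4me3 or H3K27ac, and 6080 and 10485 peaks of H3K27me3, and without read numbers in them the depth is unknown. Of 13 MuSC marker genes, 13 had ATAC-seq and H3K4me3 promoter peaks in both replicates, 12 had H3K27ac and none had H3K27me3. The H3K27ac share was 30% (3 of 10) for markers of fibro-adipogenic cells and of myofibres, 11.1% (1 of 9) for blood cells, and 10% (1 of 10) for endothelial cells and for neurons. It was 46.6% for all protein-coding genes. The other features set these lists apart less. ATAC-seq was listed in both replicates for 60% (fibro-adipogenic cells) to 90% (myofibres) of such markers, against 67.8% of all. H3K4me3 was listed for 40% (neurons) to 50%, against 60.8% of all.

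Nearly all division genes had an open promoter with H3K4me3, and most also had H3K27ac. ATAC-seq and H3K4me3 peaks were listed in both replicates for 39 of the 40 genes, against 67.8% and 60.8% of all protein-coding genes. H3K27ac was listed in both replicates for 36 of 40 (90%), against 46.6% of all protein-coding genes. None had an H3K27me3 promoter peak in either replicate. Of all 21938 protein-coding genes, 1241 had one in replicate 1, 1677 in replicate 2 and 4.81% in both, so 0 of 40 is near the share of all genes. The listed H3K27me3 peaks were short, with median widths of 176 and 180 bp. All of ATAC-seq, H3K4me3 and H3K27ac were present in both replicates at 36 of 40 genes, against 46.2% of all. Read only among genes with H3K4me3 in both replicates, H3K27ac was listed for 36 of 39 division genes (92.3%), against 76% of all such protein-coding genes. Genes with H3K4me3 mostly have H3K27ac as well, so this narrower comparison shows less of a gap.

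**Figure D1:**
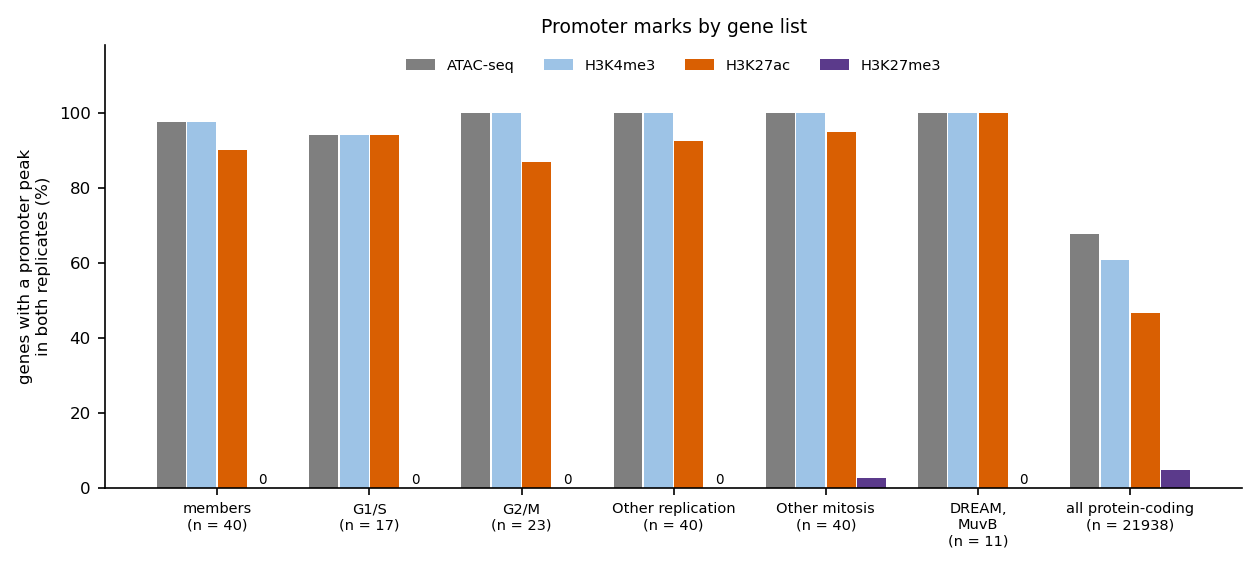
Share of genes (%) with a promoter peak in both replicates, for the 40 members, their G1/S and G2/M subsets, 3 further cell cycle lists and all protein-coding genes. Each bar is 1 feature and a 0 marks a list with no such gene; H3K27ac reached 90% of the members and 46.6% of all protein-coding genes.

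*Rrm2*, the small subunit of ribonucleotide reductase, was the 1 member without ATAC-seq and H3K4me3, and it lacked H3K27ac as well. No ATAC-seq, H3K4me3, H3K27ac or H3K27me3 peak was listed within 3 kb of its start sites, and the nearest ATAC-seq peaks lay 26305 and 26310 bp upstream in replicates 1 and 2, with the next ones 26665 and 26721 bp downstream. It counts as unmarked in the shares above, but whether its promoter is unmarked or the lists have a gap here cannot be told apart. Without it, ATAC-seq and H3K4me3 covered 39 of 39 genes and H3K27ac 36 of 39.

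The H3K27ac call was less firm than the H3K4me3 call. When the peak had to cover a TSS itself, H3K4me3 held at 39 of 40 genes (56.6% of all protein-coding genes), while H3K27ac held at 26 of 40 (39.1% of all). The genes that lost H3K27ac under this rule were *Mcm2*, *Ccne1* and *Mybl2* of the G1/S genes and *Top2a*, *Ccnb1*, *Cdk1*, *Plk1*, *Bub1b*, *Cdc20* and *Cenpf* of the G2/M genes. With only H3K27ac peaks of −log10 q of at least 5, 31 of 40 genes were marked in both replicates (43.7% of all), the losses being *Cdc6*, *Mybl2*, *Plk1*, *Bub1b* and *Cenpf*. *Mcm2* was kept through peaks over the start of the nearby gene *Tpra1*. Within 1 kb of an *Mcm2* start, its replicate 1 peak had a −log10 q of 3.6. Going by the strongest promoter peak, the weakest H3K4me3 of any marked member had a −log10 q of 36.5.

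**Figure D2:**
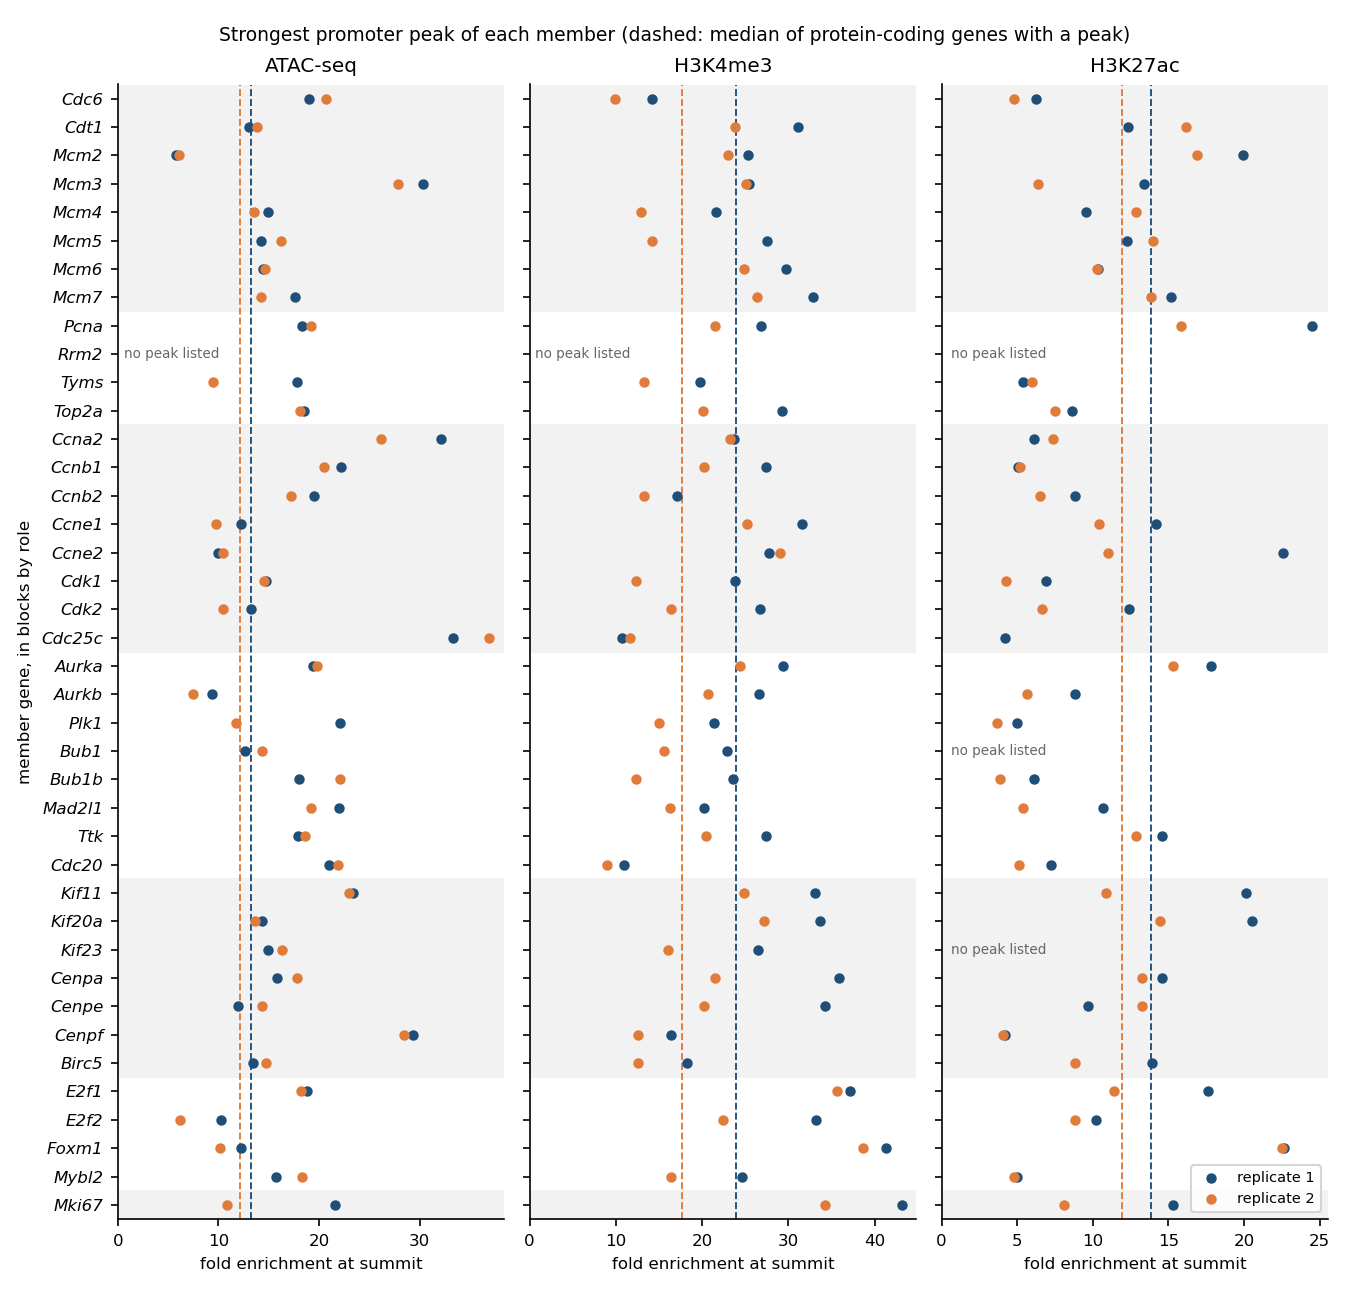
Fold enrichment at the summit of the strongest promoter peak of each of the 40 members (rows, in shaded blocks by role) for ATAC-seq, H3K4me3 and H3K27ac. Points are the 2 replicates and dashed lines the median of all protein-coding genes with a peak in that replicate; most H3K27ac points lie left of their line.

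In strength, the members stood above other marked promoters for ATAC-seq and H3K4me3 and below them for H3K27ac. The median ATAC-seq fold was 17.6 and 16.2 in replicates 1 and 2, against 13.3 and 12.2 for all protein-coding genes with a peak. These ATAC-seq sets are unlike. The strongest peak covered a TSS in 37 of 39 members, but in 10413 of 15886 and 10801 of 15058 protein-coding genes. Folds for peaks over a TSS alone are not compared here. The median H3K4me3 fold was 26.7 and 20.3, against 23.9 and 17.6. The median H3K27ac fold was 10.7 and 8.83, against 13.9 and 11.95, and 23 of 37 members in replicate 1 and 24 of 36 in replicate 2 lay below the protein-coding median. The H3K4me3 fold was higher in replicate 1 than in replicate 2 for 37 of 39 members, so values are compared within a replicate. A lower fold in a cell population can be fewer marked cells or less mark per cell, and these cannot be told apart.

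The 17 G1/S genes and the 23 G2/M genes differed in H3K27ac more than in H3K4me3. Median H3K27ac fold was 12.4 and 10.7 over the G1/S genes and 8.81 and 7.44 over the G2/M genes. For H3K4me3 the medians were 27.2 and 22.7 for G1/S genes and 26.5 and 20.2 for G2/M genes. Ranked among all protein-coding genes with an H3K27ac peak, the median G2/M gene stood at percentile 26.7 and 23.05, and the median G1/S gene at 43.19 and 42.996. The order was turned around for ATAC-seq, where G2/M genes had the higher medians, 18.5 and 17.8 against 14.7 and 14.1. The groups overlapped throughout, since H3K27ac fold ran from 4.98 to 24.5 in G1/S genes and from 4.22 to 22.7 in G2/M genes in replicate 1, and the difference between them was not tested. The 4.98 is that of *Mybl2*, whose product acts in the G2/M wave, and the medians were not recomputed without it. The 24.5 is a *Pcna* peak over the start of *Tmem230*, with 15.8 within 1 kb of a *Pcna* start. The H3K27ac peak also covers another coding gene's start at *Mcm2*, *Mcm4*, *Mcm7* and *Cdk2* (G1/S) and at *Aurka*, *Kif20a* and *Foxm1* (G2/M). With windows of 1 kb the medians, as means of both replicates, were 11.3 for G1/S and 8.13 for G2/M genes.

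**Figure D3:**
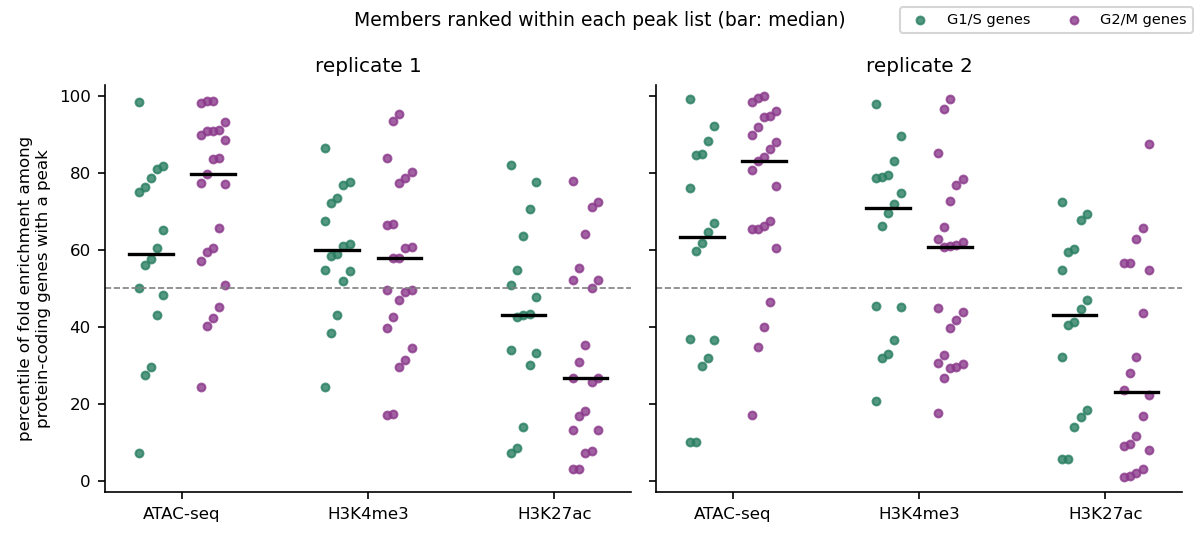
Percentile of each member's fold enrichment among all protein-coding genes with a promoter peak of the same feature and replicate (points; bars are medians, the dashed line is percentile 50). The G2/M median is highest for ATAC-seq and lowest for H3K27ac in both replicates, and the G1/S and G2/M points overlap.

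The promoter sequences of the members are shown here because the factors that drive the 2 waves read short motifs near the start. Sequences are from RefSeq on GRCm38 (mm10), 250 bases before to 50 after 1 start per gene, and 33 of the 40 members matched; *Mcm4*, *Ccna2*, *Ccne2*, *Cdc25c*, *Aurkb*, *Kif20a* and *Foxm1* did not. Motifs were searched on both strands. The cell cycle homology region (CHR), which MuvB binds, was taken as TTTGAA, with the form TTTAAA counted as well and the form TTCGAA also counted. The box that NF-Y binds was taken as CCAAT. An E2F site was taken strictly (TTTCCCGC, TTTGGCGC, TTTCGCGC or TTTGCCGC). CHR and E2F matches did not overlap each other in any member. A match is a stretch of letters and does not show that a factor binds there.

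Printed are bases before the start that lie in no annotated exon, reading 5′ to 3′ on the gene's strand, with matches in capitals. *Mcm6* (chr1:128359707-128359856, minus strand) is shown for its E2F matches, 2 of which overlap. *Cdk1* (chr10:69352939-69353063, minus strand) holds all 3 motifs. *Top2a* (chr11:99024191-99024340, minus strand), *Mki67* (chr7:135716381-135716530, minus strand), *Cdc20* (chr4:118437353-118437494, minus strand) and *Kif11* (chr19:37376232-37376381, plus strand) show the pairing of CHR and CCAAT matches in G2/M promoters. *Bub1* (chr2:127831866-127832010, minus strand) and *Kif23* (chr9:61946801-61946950, minus strand) are the members with H3K4me3 but no H3K27ac in either replicate.
Mcm6: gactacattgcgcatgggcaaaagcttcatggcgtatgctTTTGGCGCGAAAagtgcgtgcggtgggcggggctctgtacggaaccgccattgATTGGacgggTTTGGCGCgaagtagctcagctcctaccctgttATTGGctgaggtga
Cdk1: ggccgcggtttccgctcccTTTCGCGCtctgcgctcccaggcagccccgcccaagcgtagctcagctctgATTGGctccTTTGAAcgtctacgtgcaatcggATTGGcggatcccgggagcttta
Top2a: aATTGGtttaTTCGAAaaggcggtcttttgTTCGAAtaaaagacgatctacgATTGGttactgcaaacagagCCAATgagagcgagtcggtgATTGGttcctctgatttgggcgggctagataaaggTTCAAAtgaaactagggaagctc
Mki67: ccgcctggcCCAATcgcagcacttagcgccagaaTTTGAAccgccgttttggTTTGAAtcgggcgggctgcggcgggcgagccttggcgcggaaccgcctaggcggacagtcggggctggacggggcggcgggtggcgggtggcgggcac
Cdc20: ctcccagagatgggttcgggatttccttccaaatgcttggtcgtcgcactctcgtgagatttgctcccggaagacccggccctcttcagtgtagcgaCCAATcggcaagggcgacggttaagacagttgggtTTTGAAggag
Kif11: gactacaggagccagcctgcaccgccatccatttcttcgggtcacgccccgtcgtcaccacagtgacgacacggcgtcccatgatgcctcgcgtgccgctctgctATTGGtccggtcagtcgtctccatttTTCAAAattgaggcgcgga
Bub1: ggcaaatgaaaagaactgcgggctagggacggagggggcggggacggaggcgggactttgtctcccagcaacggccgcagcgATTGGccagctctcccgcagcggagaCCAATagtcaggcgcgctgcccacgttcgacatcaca
Kif23: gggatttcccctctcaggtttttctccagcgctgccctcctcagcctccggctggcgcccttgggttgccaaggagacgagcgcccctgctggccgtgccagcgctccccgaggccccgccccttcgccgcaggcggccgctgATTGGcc

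A CHR match was found in 17 of 18 G2/M promoters (94.4%) and in 4 of 15 G1/S promoters (26.7%), against 25.9% of 16417 protein-coding promoters of the same length and 19.2% of those with H3K4me3 in both replicates. More than 1 CHR match was found in 9 of the 18 G2/M promoters, none of the 15 G1/S promoters and 5.76% of all. A CCAAT match was found in 16 of 18 G2/M promoters (88.9%), 9 of 15 G1/S promoters (60%) and 38.6% of all. The strict E2F letters went the other way, with 7 of 15 G1/S promoters (46.7%), 1 of 18 G2/M promoters (5.56%, *Cdk1*) and 3% of all. Of the genes shown, *Bub1* and *Kif23* have their CHR match after the start, in bases that are not printed. *Mad2l1*, a spindle checkpoint protein, was the G2/M promoter without a CHR match in this window. The median ratio of observed to expected CpG was 0.883 over the 33 members, 0.609 over all and 0.776 over those with H3K4me3.

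**Figure D4:**
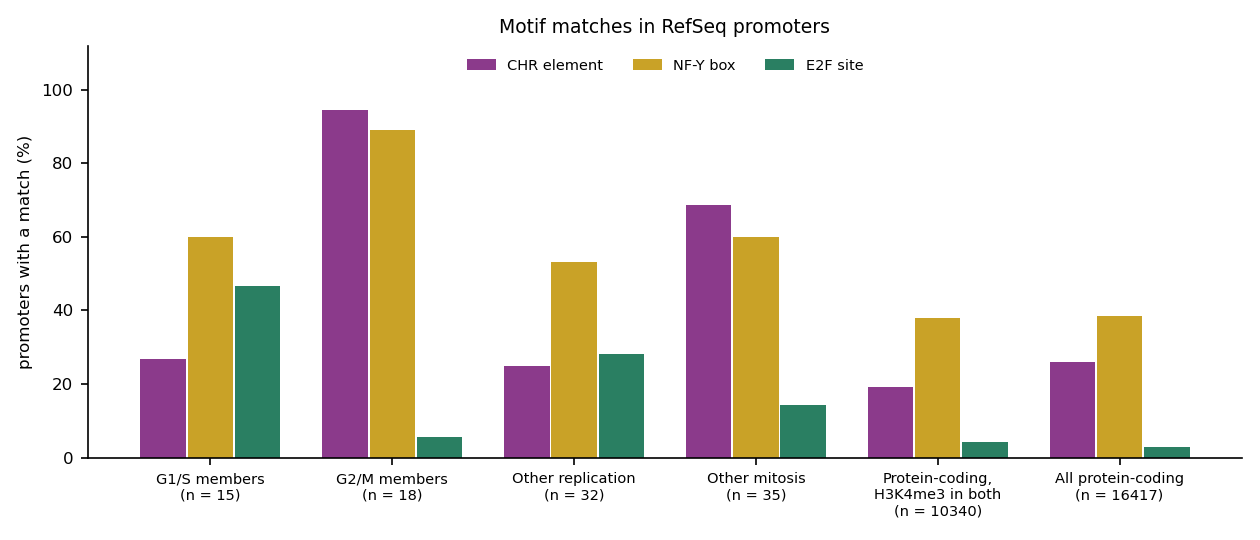
Share of RefSeq promoters (%, 250 bases before to 50 after the start) with a CHR, CCAAT (NF-Y box) or strict E2F match, for G1/S and G2/M members, 2 further lists and protein-coding genes. CHR matches stand at 94.4% in the G2/M members and E2F matches at 46.7% in the G1/S members.

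Among licensing and helicase genes, which encode the MCM ring and factors that load it on origins, all 8 carried the 3 features in both replicates. *Cdc6*, the ATPase that loads the MCM ring with *Cdt1*, had the lowest fold of both marks among the 8, going by the strongest promoter peak, and the narrowest H3K4me3. Its H3K4me3 fold was 14.2 and 9.90 with widths of 1182 and 627 bp, its H3K27ac fold was 6.22 and 4.78 with widths of 714 and 246 bp, and its ATAC-seq fold was 19.02 and 20.7. *Mcm7* had one of the widest, with H3K4me3 over 3061 and 2392 bp and H3K27ac over 2211 and 2239 bp, but these peaks also cover the start of *Ap4m1*. It had an ATAC-seq fold of 17.6 and 14.3, H3K4me3 of 32.9 and 26.4, and H3K27ac of 15.2 and 13.9. *Mcm3* had the strongest ATAC-seq of the 8 (30.4 and 27.9) and narrow H3K4me3 in replicate 2 (1503 and 715 bp), with an H3K4me3 fold of 25.5 and 25.1 and an H3K27ac fold of 13.4 and 6.36 over 683 and 547 bp.

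*Mcm2*, a subunit of the MCM helicase (chr6:88883474-88898780), shows how a neighbour can stand in for a member. Its strongest H3K4me3 peaks (25.3 and 23.01) and H3K27ac peaks (19.9 and 16.9) both cover the start of *Tpra1*, with summits at −3753 to −3658 bp from the nearest *Mcm2* start. Within 1 kb of an *Mcm2* start, H3K4me3 fold was 17.8 and 11.2 over 919 and 782 bp, and H3K27ac fold was 4.22 and 5.15 over 507 and 545 bp. Its ATAC-seq fold was 5.81 and 6.13 at the start itself, where only *E2f2* was lower among the members with a peak over a start (3.34 and 4.27). Taken at its own start, *Mcm2* is thus one of the weakly acetylated members.

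Of the DNA synthesis genes, *Pcna*, the sliding clamp of the replicative polymerases (chr2:132249162-132253314), had ATAC-seq of 18.3 and 19.2, H3K4me3 of 26.8 and 21.5 over 2075 and 1838 bp, and no H3K27me3. Its strongest H3K27ac peak (24.5 and 15.8) has its summit 2153 and 2161 bp downstream of the nearest *Pcna* start and covers the start of *Tmem230*, while within 1 kb of a *Pcna* start there was H3K27ac of 15.8 and 11.0 over 2051 and 1138 bp. *Top2a*, the topoisomerase that untangles sister DNA (chr11:98992943-99024189), had ATAC-seq of 18.5 and 18.1, H3K4me3 of 29.3 and 20.2 over 2243 and 1049 bp, and H3K27ac of only 8.64 and 7.52 over 704 and 470 bp. *Tyms*, thymidylate synthase, had H3K27ac of 5.36 and 5.98.

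*Ccna2*, *Ccnb1* and *Cdk1* had H3K27ac of low rank. *Ccna2*, cyclin A2 (chr3:36564865-36572150), had ATAC-seq of 32.1 and 26.1, H3K4me3 of 23.7 and 23.2 over 2675 and 2189 bp, and H3K27ac of 6.13 and 7.36 over 700 and 1310 bp. *Ccnb1*, cyclin B1 (chr13:100778650-100786570), had ATAC-seq of 22.2 and 20.5, H3K4me3 of 27.4 and 20.3 over 1800 and 1429 bp, and H3K27ac of 5.04 and 5.17 over 467 and 286 bp. *Cdk1*, the kinase that drives mitotic entry (chr10:69335146-69352938), had ATAC-seq of 14.7 and 14.5 and H3K4me3 of 23.8 and 12.3 over 2365 and 1474 bp. Its H3K27ac was 6.90 and 4.27 over 457 and 764 bp, and the replicate 1 peak has its summit 2149 bp downstream of the nearest start, while within 1 kb of a start the fold there was 5.14 over 1381 bp. In these 3 genes H3K27ac lay at or below percentile 22.4 of marked promoters. *Ccnb2*, cyclin B2, stood at percentile 26.7 and 16.8, with H3K27ac of 8.81 and 6.49.

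The E cyclins, which pair with Cdk2 at S phase entry, stood higher. *Ccne2* had H3K27ac of 22.6 and 11.0 over 2124 and 2020 bp and H3K4me3 over 2537 and 2408 bp, among the 3 widest members for both marks by the lower replicate. Its H3K4me3 fold was 27.7 and 29.1, and its ATAC-seq of 9.93 and 10.5 was below the protein-coding median in both replicates. *Ccne1* had H3K27ac of 14.2 and 10.4. *Cdc25c*, the phosphatase that activates Cdk1, was the reverse case. It had the highest ATAC-seq fold of all members (33.4 and 36.9, percentile 98.8 and 99.96 of marked promoters), H3K4me3 of only 10.7 and 11.6 over 1530 and 575 bp, and H3K27ac in replicate 1 alone, with a fold of 4.22 over 205 bp. The replicate 2 H3K4me3 peak covers no *Cdc25c* start but that of the noncoding *2010110K18Rik*, as the replicate 1 peak also does, and the peak over a *Cdc25c* start in replicate 2 had a fold of 4.94 over 714 bp. In replicate 2 the nearest H3K27ac peak to its start lay 7231 bp away.

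Among mitotic kinases and checkpoint genes, all 8 had ATAC-seq and H3K4me3 and 7 had H3K27ac in both replicates. The exception, *Bub1*, a checkpoint kinase at kinetochores (chr2:127801122-127831865), had ATAC-seq of 12.6 and 14.4 over 217 and 242 bp and H3K4me3 of 22.9 and 15.6 over 1421 and 1082 bp, with the nearest H3K27ac peak 39337 bp away in replicate 1 and 243904 bp in replicate 2. *Plk1*, polo-like kinase 1, had the lowest listed H3K27ac of the members by the lower replicate (4.98 and 3.68 over 761 and 307 bp) beside H3K4me3 of 21.4 and 15.03 over 2446 and 2101 bp and ATAC-seq of 22.06 and 11.7. *Bub1b*, which encodes the checkpoint protein BubR1, followed with 6.13 and 3.87 over 481 and 312 bp, beside H3K4me3 of 23.5 and 12.3 over 1318 and 833 bp and ATAC-seq of 18.02 and 22.1. *Cdc20*, the activator of the anaphase-promoting complex, had the lowest H3K4me3 of the members by the strongest peak in the lower replicate (10.9 and 9.002 over 2133 and 1160 bp), above only the *Cdc25c* peak just given when peaks over a start are compared. Its ATAC-seq was 20.996 and 21.9 and its H3K27ac 7.24 and 5.15 over 1725 and 435 bp. The highest H3K27ac of the 8 was at *Aurka* (17.8 and 15.3), whose peaks also cover the start of *Cstf1*.

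Of the kinesins, centromere proteins and *Birc5*, all 7 had ATAC-seq and H3K4me3 and 6 had H3K27ac. *Kif23*, a motor of the central spindle in cytokinesis (chr9:61915905-61946774), had H3K4me3 of 26.5 and 16.1 over 1601 and 1456 bp and no H3K27ac, the nearest peak lying 31610 and 31639 bp away. Its strongest ATAC-seq peak (14.9 and 16.4) has its summit at −1444 and −1454 bp from the nearest start, and the peak over the start had 12.3 and 10.4. *Cenpf*, a kinetochore and nuclear matrix protein, combined one of the highest ATAC-seq folds (29.3 and 28.5) with H3K4me3 of 16.4 and 12.6 over 1945 and 1343 bp and H3K27ac of 4.22 and 4.05 over 233 and 240 bp. *Kif11*, the motor that pushes spindle poles apart, had the widest H3K4me3 by its lower replicate (2888 and 2565 bp, fold 33.1 and 24.9), H3K27ac of 20.1 and 10.9 over 1534 and 1160 bp, and ATAC-seq of 23.3 and 22.99. *Kif20a*, a cytokinesis motor, had H3K27ac of 20.5 and 14.4 in peaks shared with the start of *Brd8*.

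Of the 4 transcription factors, all with the 3 features in both replicates, *Foxm1* and *E2f1* had the highest H3K4me3 of the members by the lower replicate. *Foxm1*, a driver of the G2/M wave (chr6:128362967-128376146), had H3K4me3 of 41.4 and 38.7 over 1995 and 1516 bp, H3K27ac of 22.7 and 22.5 over 1411 and 1259 bp, and ATAC-seq of 12.2 and 10.2, below the protein-coding median in both replicates. The start of *Rhno1* lies in the same peaks. *E2f1*, a driver of the G1/S wave (chr2:154559407-154569892), had H3K4me3 of 37.2 and 35.7 over 2248 and 1605 bp, H3K27ac of 17.6 and 11.4 over 1107 and 1304 bp, and ATAC-seq of 18.8 and 18.2 over 925 and 1107 bp. *Mybl2*, which encodes B-Myb, had H3K27ac of only 4.98 and 4.78 over 817 and 235 bp, beside H3K4me3 of 24.6 and 16.4 over 1665 and 1198 bp and ATAC-seq of 15.7 and 18.3. *E2f2* had the widest H3K27ac peak in replicate 1, 5205 bp against 1652 bp in replicate 2, at a fold of 10.2 and 8.83, and H3K4me3 of 33.2 and 22.4 over 3031 and 1964 bp. Its strongest ATAC-seq peak (10.3 and 6.14) had its summit 2573 and 2689 bp downstream of the nearest start.

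*Mki67*, the coat protein of mitotic chromosomes and the usual marker of cycling cells (chr7:135689784-135716361), had H3K4me3 of 43.1 and 34.3 over 2890 and 1868 bp, which stood at percentile 95.3 and 96.7 of marked promoters. Its H3K27ac was 15.3 and 8.09 over 1196 and 915 bp, at percentile 55.3 and 28.01, and its ATAC-seq was 21.6 and 10.9. No H3K27me3 was listed. *Mki67* and *Top2a* thus both had H3K4me3 above, and H3K27ac near or below, the middle of marked promoters.

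H3K27ac values were higher at members with another coding gene's start nearby. Each value takes the strongest peak in the window, so a neighbour's own peak can set it. The members without a neighbour include *Mcm2*, whose strongest H3K27ac peaks cover the start of *Tpra1*. The same split was not made over all protein-coding genes. A start of another protein-coding gene lies within 3 kb at 8 members (*Mcm4*, *Mcm7*, *Pcna*, *Cdk2*, *Cdc25c*, *Aurka*, *Kif20a* and *Foxm1*), and their median H3K27ac fold was 16.5 and 14.4, against 10.2 and 7.52 in the 29 marked members without one. In 8 members the strongest H3K27ac peak itself covers another coding gene's start in both replicates, which are the same genes with *Mcm2* in the place of *Cdc25c*. Such a peak cannot be assigned to 1 of both genes. H3K4me3 differed less, with medians of 28.1 and 22.95 against 26.5 and 20.2. Without a neighbour the median H3K27ac width was 817 and 631 bp, against 1316 and 1274 bp with one, where 8 and 7 members had a peak.

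**Figure D5:**
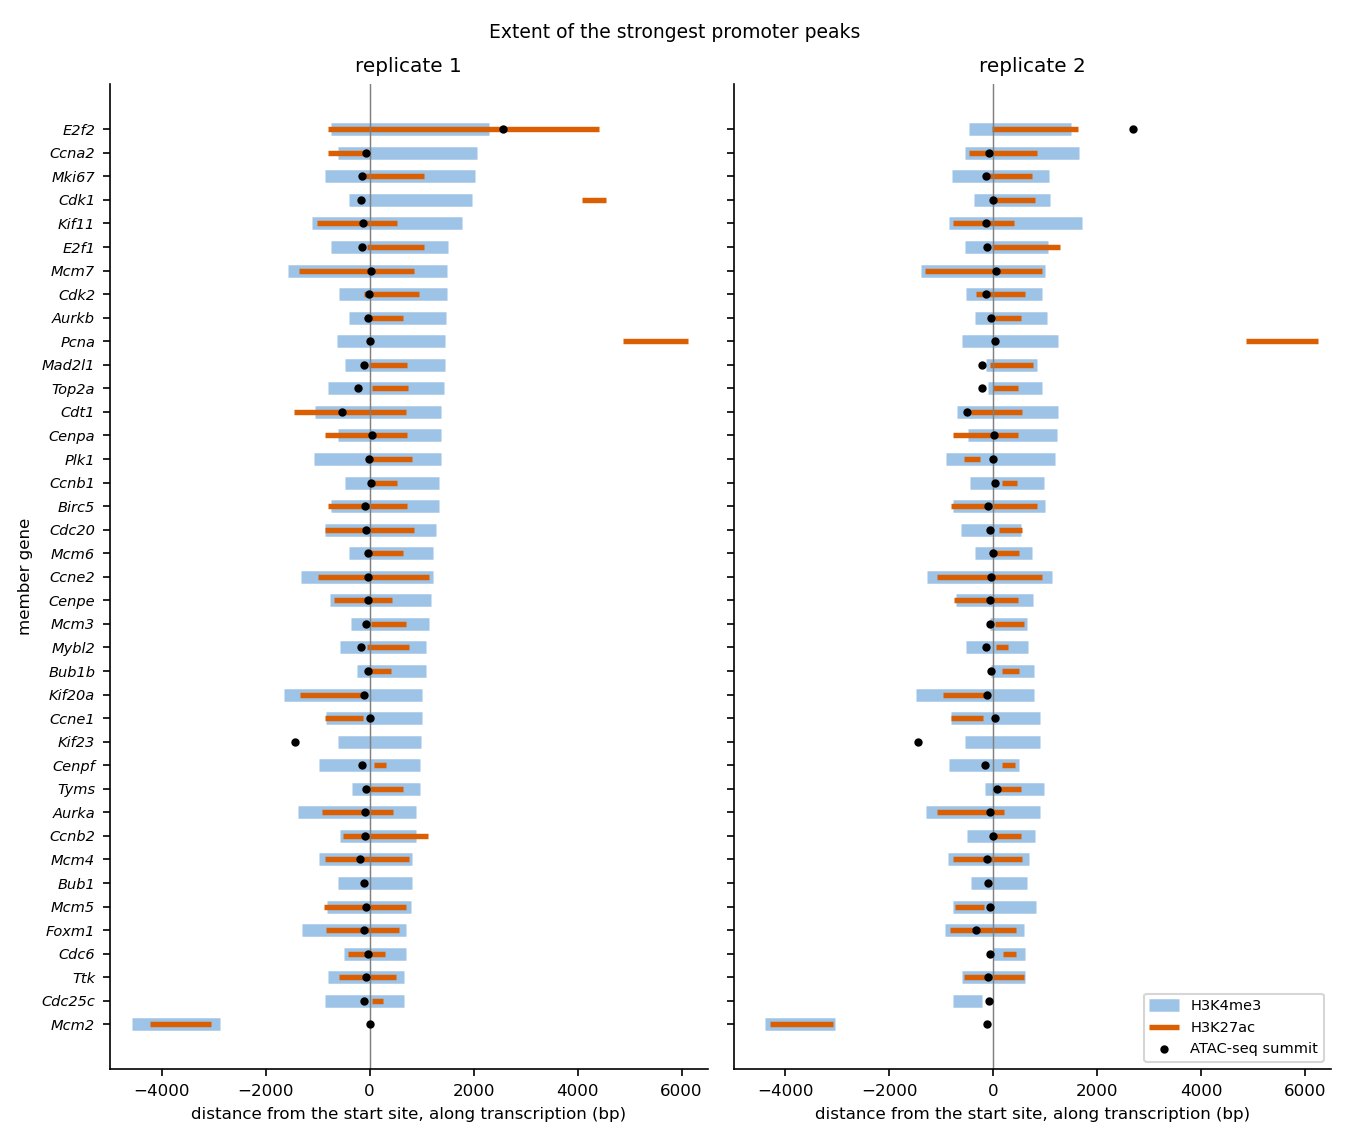
Extent of the strongest H3K4me3 (wide bars) and H3K27ac (narrow bars) promoter peaks and summit of the strongest ATAC-seq peak (dots) for the 39 members with peaks, as distance (bp) from the start nearest the replicate 1 ATAC-seq summit, with transcription to the right. H3K27ac bars are mostly shorter than the H3K4me3 bars, and the distant bars of *Mcm2* and *Pcna* lie at neighbouring genes.

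ATAC-seq summits lay upstream of the start more often at division genes than at all protein-coding genes with a peak, while H3K4me3 summits were placed much as elsewhere. The ATAC-seq sets are not alike, since the strongest peak covered a TSS in 37 of 39 members in each replicate. Among all protein-coding genes with a peak it did so in 10413 of 15886 and 10801 of 15058. Upstream shares for peaks over a TSS alone are not given here. The ATAC-seq summit was upstream of the nearest TSS in 33 and 34 of 39 members (84.6% and 87.2%), against 59.2% and 61.9% of all protein-coding genes with a peak, and its median position was −73 and −70 bp, against −18 and −24 bp. The H3K4me3 summit lay downstream in 28 and 26 of 39 (71.8% and 66.7%), against 75.3% and 75.6% of all, with its median at 99 and 92 bp, against 117 and 110 bp. H3K4me3 peaks were wider than at other marked genes, with medians of 1956 and 1474 bp against 1615 and 1337.5 bp, but narrower than at the MuSC markers, 4663 and 3496 bp. H3K27ac medians were 1107 and 886 bp, against 1159 and 985.5 bp for all.

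Relative to the strongest H3K4me3 peak, the strongest H3K27ac peak was narrower at division genes than at all protein-coding genes with both marks. The paired peaks overlapped in 35 of 37 and 35 of 36 members, so the width ratio is no measure of shared extent. H3K27ac lay wholly inside the H3K4me3 peak in 70.3% and 77.8% of members, against 74.2% and 66.4% of all such genes. The H3K27ac peak was the narrower in 35 of 37 (94.6%) and 36 of 36 (100%) members, near the 92.7% and 88.9% of all protein-coding genes with both marks. Its median width was 51.9% and 51.1% of that of H3K4me3, against 65.8% and 68.5% for all such genes. In G2/M genes it was 41.4% and 47.1%, and in G1/S genes 60.2% and 70.1%, which in replicate 2 was above the value for all such genes. These are peak widths, which depend on the calling limit as well as on the spread of the mark.

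The rank order of members held up between replicates, with Spearman's rho of 0.785 for ATAC-seq, 0.826 for H3K4me3 and 0.804 for H3K27ac fold over 39, 39 and 36 genes. H3K27ac fold rose with H3K4me3 fold across members (rho 0.659 and 0.604) much as across all protein-coding genes (0.615 and 0.566). ATAC-seq fold ran weakly against both marks, with rho of −0.367 and −0.313 for H3K27ac and −0.347 and −0.305 for H3K4me3, where all protein-coding genes gave 0.101 and 0.0481, and 0.278 and 0.258. The points share their library, and some share a promoter with a neighbour. *Cdc25c*, *Cenpf* and *Ccna2* are examples of open but weakly acetylated members, and *Foxm1* and *Ccne2* of the reverse. *Mcm3* was about as open, with ATAC-seq of 30.4 and 27.9, and its H3K27ac stood at percentile 47.7 and 16.5. The H3K27ac values of *Mcm2* used here are peaks over the start of *Tpra1*.

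Further cell cycle genes were mostly in a like promoter state. Of 40 other replication genes, 40 had ATAC-seq and H3K4me3 and 37 had H3K27ac in both replicates. *Prim1*, the DNA primase subunit, had no H3K27ac peak, and *Gins2* and *Gins3*, of the helicase complex, had one in replicate 1 only (8.04 and 4.22). These and the next genes are named after their values were seen. Of 40 other mitosis genes, 40 had ATAC-seq and H3K4me3 and 38 had H3K27ac, the cohesin protease *Espl1* (5.37) and the kinase *Melk* (4.22) having it in replicate 1 only. Median H3K27ac fold was 8.77 and 8.10 in the other replication genes and 11.2 and 9.19 in the other mitosis genes, below the protein-coding medians in both lists, so that the lower H3K27ac of G2/M than of G1/S members was not seen between these lists.

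H3K27me3 was listed in both replicates at 1 of the 80 genes, *Bub3*, a checkpoint protein, with a fold of 6.38 and 5.48 beside H3K4me3 of 22.3 and 14.7 and H3K27ac of 13.03 and 14.3. *Ect2* had it in replicate 1 only (3.75 over 84 bp) and *Racgap1* in replicate 2 only (3.42 over 178 bp), both of them cytokinesis genes. CHR matches were found in 68.6% of 35 other mitosis promoters and 25% of 32 other replication promoters, and E2F matches in 14.3% and 28.1%.

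The genes of the DREAM and MuvB complexes, *Rbl1* (p107), *Rbl2* (p130), *E2f4*, *E2f5*, *Tfdp1*, *Tfdp2*, *Lin9*, *Lin37*, *Lin52*, *Lin54* and *Rbbp4*, all 11 of them, carried the 3 features in both replicates, against 46.2% of all protein-coding genes. None of the 11 had H3K27me3 in either replicate, which is near the share of all genes, 4.81% having it in both. Their H3K27ac fold ran from 7.72 at *Rbl2* to 33.0 at *Rbbp4* in replicate 1 and from 6.14 to 26.01, at the same genes, in replicate 2. Peaks show the promoter state of these genes and not whether their products were bound at the members.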

How the data were processed

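The 8 lists of ATAC-seq and ChIP-seq peaks come from FACS-sorted GFP+ MuSCs, grouped by feature and replicate from the labels. According to the submitters' notes and the methods, the authors trimmed reads with Trim Galore 0.6.10, aligned them to mm10 with BWA 0.7.17-r1188, filtered them with SAMtools 1.5, removed blacklisted regions with bedtools, shifted ATAC-seq reads for Tn5 with deepTools 3.5.5, and called peaks with MACS2 2.2.6, each library on its own. The samples also include an input for H3K27me3 and H3K4me3 and an input for H3K27ac. If peaks were called against these, both replicates of a mark share a control. The deposited values are the authors' fold enrichment at the summit (a ratio), −log10 p-value and q-value, a score made from them, and the summit's offset. H3K27me3 lists reach weaker peaks than the others, since they were limited by p and not by q. The lists give no read numbers, so no interval is given.

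Peaks were joined to GENCODE M21 (overlap from 1 bp, 3 kb either side of any TSS) in Python 3.11.15 with numpy 2.4.6 and scipy 1.17.1, and the overlap step was tested on simulated data. Genes with no peak in a list were taken as unmarked there, whether or not the library could have shown one, and a percentile is the rank among protein-coding genes with a peak in that list. No hypothesis test was run, since members are not replicates. With 2 replicates, both values are printed in place of an SD, and only the spread between these samples, which may be technical, is measured.

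Members and lists were chosen with earlier results of these data known. All members are counted by role, and values in every library are given for *Mki67*, *Top2a*, *Ccna2*, *Ccnb1*, *Cdk1*, *Mcm2*, *Pcna*, *E2f1* and *Foxm1*, for members lacking a mark, and for the 3 highest and 3 lowest in fold and width of H3K4me3 and H3K27ac by the lower replicate. Of the other lists, genes with H3K27me3 in both replicates and all DREAM and MuvB genes are named by rule, and further genes after their values were seen. The other samples were not analysed here.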

Additional observations from a re-analysis of the deposited data

How the results depend on the processing

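The numbers of marked members were recounted with windows of 1 kb, peaks covering a TSS, basic protein-coding transcripts, −log10 q of at least 5, overlaps of at least 200 bp, either replicate, each replicate alone, members without a neighbouring TSS and, for H3K27me3, q of at most 0.05. Leaving out *Rrm2* and the G1/S and G2/M medians under other settings were added after seeing the data. All 41 recounts stayed within 1.5 times the reported count, but this limit is wide and many recounts could hardly leave it. H3K27ac fell from 36 to 26 for peaks covering a TSS and still stayed within it. Counts of 39 of 40 could hardly rise, and narrower or stricter rules could not raise the 0 of H3K27me3. Leaving out *Rrm2*, which has no peak, could change no count, and the members without a neighbouring TSS number only 32. Of 24 medians recomputed under settings that keep both replicates, 22 moved by less than the SD of the replicates; with 2 replicates, leaving out 1 cannot move a mean by more than that and is no check. With the widest instead of the strongest peak, the median ATAC-seq fold was 15.3 (reported 16.9, mean of both replicates), and without members that have a neighbouring TSS the median H3K27ac width was 724 bp (reported 996.5 bp); the cause was not tested. Members have no known read depth, so a missing H3K27ac peak may lie below what these libraries could list.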
